A study of Homo sapiens with 6 samples.

Results

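The nuclear genes of the respiratory chain and ATP synthase were examined in RL95-2 cells, an established human endometrial cancer line, kept for 24 h with or without adipocyte-conditioned medium (ADP-CM). They were chosen by symbol: NDUFA, NDUFB, NDUFC, NDUFS or NDUFV followed by a digit (complex I), SDHA to SDHD (complex II), symbols that start with UQCR together with CYC1 (complex III), symbols that start with COX4 to COX8 (complex IV) and symbols that start with ATP5 (complex V, the ATP synthase). This gave 91 of the 23228 genes counted, with 39, 4, 10, 18 and 20 in complexes I to V. The 3 control samples received serum-free RPMI mixed with an equal part of DMEM, and the 3 ADP-CM samples received serum-free RPMI mixed with an equal part of the medium that mature human adipocytes had conditioned. Both groups were therefore without serum, and all 6 libraries came from 1 cell line, so the p-values measure the spread between libraries of that line, which may be technical. In bulk RNA fewer cells of a type and less RNA per cell cannot be told apart. Values written with ± are the mean and SD of 3 libraries (n = 3). Nothing in the labels says whether the replicates were separate cultures.

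The respiratory chain sits in the inner mitochondrial membrane. Complexes I and II pass electrons from NADH and succinate to ubiquinone, complex III passes them on to cytochrome c, and complex IV reduces oxygen. Complexes I, III and IV pump protons, and the ATP synthase uses the returning protons to make ATP. Complex II is coded wholly in the nucleus, while the other complexes also hold subunits that mitochondrial DNA encodes, and those were not analysed here. Many nuclear genes of the chain are known to have promoters bound by NRF1, by ETS factors such as GABPA, or by YY1.

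The libraries held 16262614 to 18363033 reads on genes. Of all reads, 10.2% to 10.31% in control and 11.51% to 11.57% in ADP-CM lay on no gene. The 7 epithelial markers EPCAM, CDH1, KRT8, KRT18, KRT19, CLDN4 and PAX8 summed to between 4143 and 4217 CPM (TMM-normalized counts on genes, scaled to library size) in control and between 3489 and 3537 in ADP-CM, so the libraries hold epithelial RNA as labelled. Most of this sum was KRT8 and KRT18. The 7 did not move alike, with log2 fold changes from -0.85 (KRT19) to 0.28 (PAX8), 5 below 0 and 2 above, and EPCAM at 0.005. Of 12 adipocyte markers 7 had at most 3 reads in every library, ADIPOQ and LEP had 0 throughout, and the summed level was 15.3 to 16.6 CPM in control against 14.2 to 16.3 in ADP-CM. Stromal markers summed to 61.5 to 68.4 CPM in control and 78.3 to 79.2 in ADP-CM, almost all of it COL1A1, with 4 of 8 markers at no more than 3 reads and THY1 at 0. Leukocyte markers summed to 7.08 to 8.53 and 10.03 to 12.2 CPM, mostly CD68, with 4 of 7 at no more than 3 reads. The part of these differences in the results that follow was not tested.

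The promoters of 5 genes of complexes III and II are printed first, because they belong to the genes that gave most of the calls in these complexes: UQCRC1, which fell, and UQCRC2, UQCR11, UQCRH and SDHB, which rose. The sequences are RefSeq promoters on build GRCh38.p14, from 250 bases before to 50 bases after the annotated start, 5′ to 3′ on the strand of the gene. UQCRC1 lies at chr3:48609597-48609896 (minus strand), UQCRC2 at chr16:21953111-21953410 (plus), UQCR11 at chr19:1605413-1605712 (minus), UQCRH at chr1:46303448-46303747 (plus) and SDHB at chr1:17053983-17054282 (minus). Capitals mark a match, on either strand, to the palindromic NRF1 consensus, an ETS motif searched as CCGGAAGT or a YY1 motif searched as AAGATGGCG.
UQCRC1: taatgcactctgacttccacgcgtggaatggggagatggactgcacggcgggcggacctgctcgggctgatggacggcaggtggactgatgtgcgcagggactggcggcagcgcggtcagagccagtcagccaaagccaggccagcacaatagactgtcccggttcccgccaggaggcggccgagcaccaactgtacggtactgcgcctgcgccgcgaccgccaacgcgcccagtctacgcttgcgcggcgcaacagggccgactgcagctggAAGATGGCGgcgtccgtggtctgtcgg
UQCRC2: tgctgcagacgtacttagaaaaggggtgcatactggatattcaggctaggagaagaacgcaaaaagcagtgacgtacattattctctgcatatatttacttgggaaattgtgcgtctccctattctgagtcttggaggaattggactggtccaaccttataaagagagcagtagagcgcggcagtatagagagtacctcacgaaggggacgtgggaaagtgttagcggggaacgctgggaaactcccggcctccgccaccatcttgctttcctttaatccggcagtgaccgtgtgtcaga
UQCR11: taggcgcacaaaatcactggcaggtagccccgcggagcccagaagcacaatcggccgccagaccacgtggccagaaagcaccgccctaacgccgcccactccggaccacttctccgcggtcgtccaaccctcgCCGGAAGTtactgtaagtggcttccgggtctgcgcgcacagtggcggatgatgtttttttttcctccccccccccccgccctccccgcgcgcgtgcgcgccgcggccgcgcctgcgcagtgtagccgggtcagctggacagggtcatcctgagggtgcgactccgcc
UQCRH: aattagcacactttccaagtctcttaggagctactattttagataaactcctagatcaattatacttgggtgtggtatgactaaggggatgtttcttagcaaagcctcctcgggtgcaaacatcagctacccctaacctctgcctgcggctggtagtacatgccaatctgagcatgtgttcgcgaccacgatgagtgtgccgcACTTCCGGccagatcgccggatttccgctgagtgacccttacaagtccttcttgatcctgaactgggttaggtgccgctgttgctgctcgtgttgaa
SDHB: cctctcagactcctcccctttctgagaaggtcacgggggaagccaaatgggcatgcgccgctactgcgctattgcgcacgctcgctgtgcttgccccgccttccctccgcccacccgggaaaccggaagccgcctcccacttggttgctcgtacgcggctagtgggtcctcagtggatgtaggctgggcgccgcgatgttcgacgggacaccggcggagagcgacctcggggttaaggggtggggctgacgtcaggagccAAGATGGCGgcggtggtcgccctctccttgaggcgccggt

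Of the 91 genes, 69 had a RefSeq promoter in the table used. Among these the NRF1 letters were found in 4 promoters (5.80%), the ETS letters in 9 (13.04%) and the YY1 letters in 8 (11.6%), where all 27305 promoters of the same length gave 1.36%, 4.43% and 1.85%. A GC box, searched as GGGCGG, was found in 41 of the 69 (59.4%) and in 44.6% of all promoters. The set of all promoters was not limited to genes tested here, and no share over tested genes alone was counted. UQCRC1 and SDHB each carry the YY1 letters shortly after the start, although UQCRC1 fell and SDHB rose. UQCR11 and UQCRH carry the ETS letters, and UQCRC2, which rose with them, carries none of the 3 marked motifs. Of the promoters of genes that rose, 2 of 5 held the ETS letters, and of those that fell, 2 of 11. NRF1 letters were found in 0 of these 16 and in 4 of the 48 promoters whose genes did not pass the test. A match is a run of letters and was not tied to binding in these cells.

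The genes as a whole changed little with ADP-CM. Of the 81 that had enough reads to be tested, 6 rose and 12 fell in edgeR's quasi-likelihood test (adjusted p under 0.01), where 13.5% and 13.0% of all 12663 tested genes rose and fell. These were 7.41% and 14.8% of the tested genes of the chain, so the share that rose was below the background and the share that fell was close to it. No gene passed a fold change of 1.5 (0 in either direction, also 0 with DESeq2 and 0 at an unadjusted p under 0.05), where 1.14% of all tested genes passed it upward and 1.14% downward. The largest called rise was 11.5%, that of UQCRC2, and the largest called fall 12.3%, that of NDUFA11. The median log2 fold change was -0.02 over the tested genes of the chain and -0.002 over all tested genes, and the middle 50% of values ran from -0.08 to 0.03 against -0.11 to 0.11. Libraries of the groups did not overlap for 9 genes with ADP-CM above and 20 with ADP-CM below, which is 11.1% and 24.7% of 81, where 22.7% and 22.8% of all tested genes showed this. DESeq2 called 4 genes higher and 6 lower, 4.94% and 7.41% of 81, where it called 8.88% and 8.02% of all tested genes. Without ADP-CM replicate 1 only 3 genes were called higher. That fit called 20.7% of all tested genes in either direction, where the full fit called 26.5%.

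The absence of larger changes can be read against the precision. The 81 tested genes had mean levels from 4.02 CPM (ATP5E) to 1428 CPM (ATP5B), while 9 of the 10 untested had at most 3 reads in every library. Over the tested genes the median coefficient of variation between libraries was 2.81% in control and 2.54% in ADP-CM. The median standard error of the log2 fold change was 0.033. For 61 of the 63 genes that did not pass the test, an interval of 1.96 standard errors on each side (95%) lay within a 1.2-fold change in either direction. The exceptions were ATP5S and ATP5E, the latter with a bound of 0.63 on the log2 scale.

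**Figure D1:**
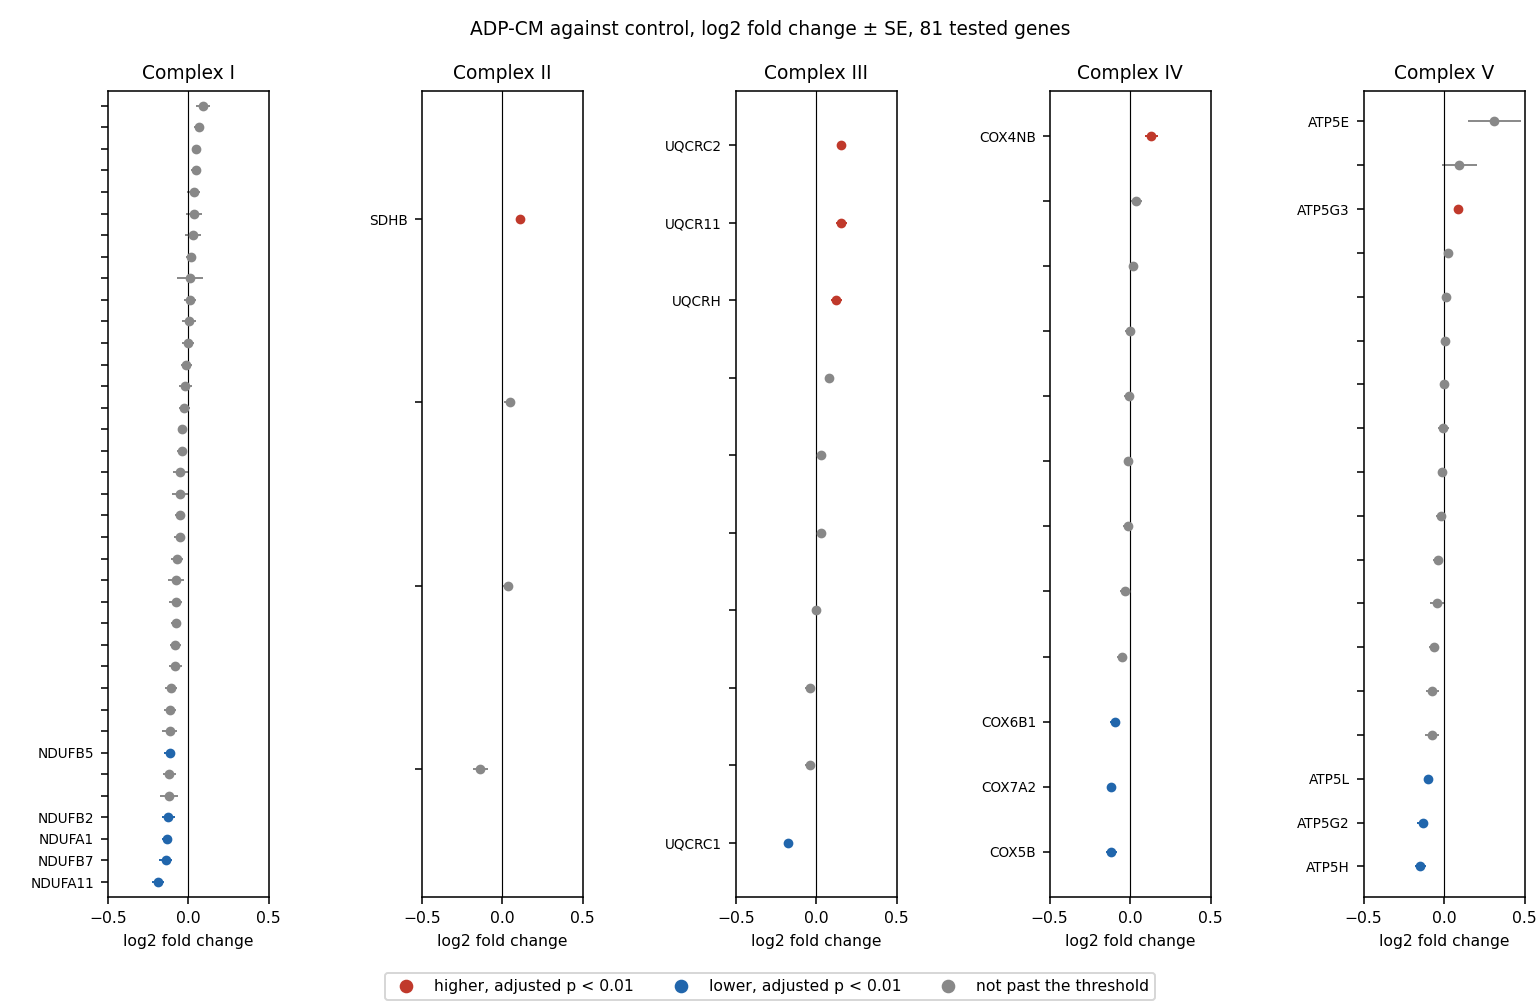
The 81 tested genes are drawn by complex, with the log2 fold change of ADP-CM against control on the x axis and its standard error as a bar. Red marks the 6 genes that rose, blue the 12 that fell and grey those not past an adjusted p of 0.01, names are given for the called genes and ATP5E, and all values other than that of ATP5E lie between -0.19 and 0.16.

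By complex, the counts were small and are read against the same 13.5% higher and 13.0% lower of all tested genes. Complex I had 0 genes higher and 5 lower of 37 tested (13.5%), so its share that fell was at the background. Complex II had 1 higher and 0 lower of 4, and complex III had 3 (30%) and 1 (10%) of 10. Complex IV had 1 (8.33%) and 3 (25%) of 12, and complex V had 1 (5.56%) and 3 (16.7%) of 18. Those 18 include ATP5S and ATP5SL (now DMAC2L and DMAC2), taken as matches by name only, and the pseudogene ATP5EP2, none of them called. The median log2 fold changes in the same order were -0.05, 0.04, 0.03, -0.01 and -0.01. At an unadjusted p under 0.05 complex I had 2 genes higher and 13 lower, and complex II had 1 higher and 1 lower. The share of all tested genes at that looser limit was not counted, so these counts cannot be read against 13.5% and 13.0%. DESeq2 called 0 higher and 1 lower in complex I, and 1 higher and 0 lower in complex II. Differences between the complexes were not tested.
The summed level of each complex, with every gene counted once, moved by a few percent at most. These sums hold every gene matched by symbol, with COX4NB, UQCRHL, ATP5EP2, ATP5S and ATP5SL included, and sums without those were not computed. Complex I summed to 3147, 3092 and 3142 CPM in the control libraries and to 3044, 3023 and 3054 in the ADP-CM libraries, a difference of -2.79% of the control mean, without overlap of the groups. Complex II went from 521.5 ± 8.81 to 540.3 ± 10.6 CPM, where the groups overlapped. Complex III went from 1735 ± 8.79 to 1763 ± 19.1 CPM, also with overlap. Complex IV was at 1846, 1874 and 1910 CPM in the control libraries against 1844, 1842 and 1836 with ADP-CM, so the groups just failed to overlap. The difference was -1.91% of the control mean, and -1.02% without control replicate 3. COX4NB, in complex IV by name only, went against it, from a mean of 64.55 CPM in control to 70.75 with ADP-CM. Complex V was at 4361 ± 96.7 and 4356 ± 13.9 CPM, and its difference of -0.102% was far inside the spread of the control libraries, with 1.16% without control replicate 3 and -1.01% without control replicate 1. Together the genes took 1.15% to 1.18% of the reads on genes.

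**Figure D2:**
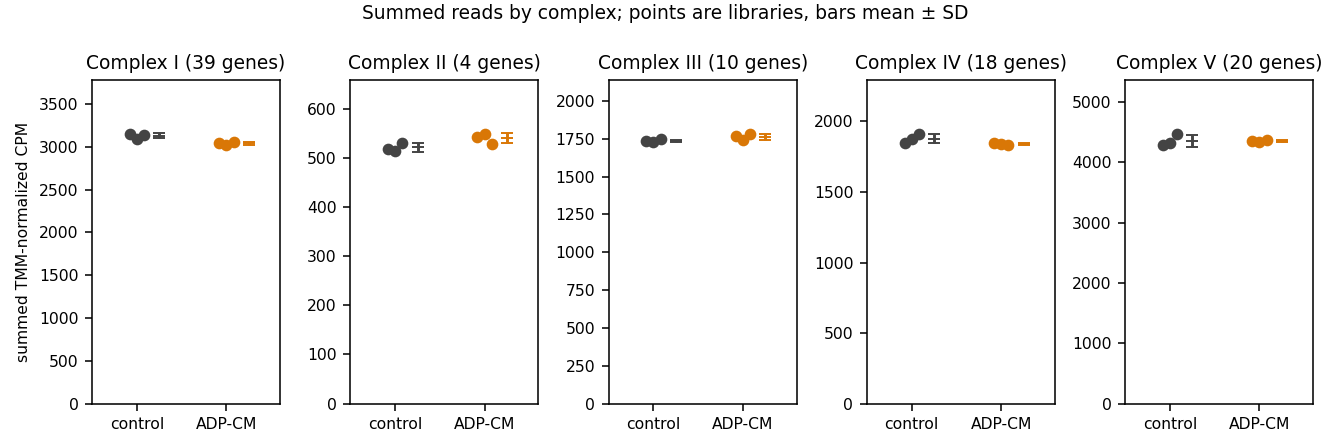
Summed TMM-normalized CPM of all genes matched by symbol to each complex, name-only matches included, 1 point per library with mean ± SD beside it, on axes that start at 0. Complex I is the complex with the clearest gap, 3092 to 3147 CPM in control against 3023 to 3054 in ADP-CM, and the gap is small on this scale.

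In complex I, the NADH dehydrogenase, the genes that fell all code for accessory subunits, which surround the catalytic core. The 7 nuclear core genes of the NDUFS and NDUFV series, which bind the flavin and the iron-sulfur clusters or shape the quinone site, had 0 calls, with log2 fold changes between -0.08 (NDUFS8) and 0.09 (NDUFV2) and a lowest adjusted p of 0.0808 in edgeR's test. The other 30 tested genes held the 5 calls and had a median of -0.06. This division was made after the values were seen and has no test. Of all tested genes 13.5% rose and 13.0% fell, so 0 calls among 7 genes cannot set the core apart.
NDUFA11 (chromosome 19, 5891287 to 5904017) codes for a membrane-arm accessory subunit and was at 83.6, 79.8 and 84.3 CPM in the control libraries against 73.96, 71.0 and 72.3 with ADP-CM. Every ADP-CM library lay below every control library. Its log2 fold change was -0.19 (SE 0.037, edgeR adjusted p 2.74e-05), and the call held in all 15 alternatives.
The other 4 were less stable. NDUFA1 (chromosome X, 119005795 to 119010625), needed to assemble the membrane arm, was at 116.5, 105.8 and 112.3 CPM in the control libraries against 101.0, 102.3 and 102.0 with ADP-CM, a log2 fold change of -0.13. NDUFB7 (chromosome 19, 14676890 to 14682878), an accessory subunit on the intermembrane side, was at 82.9, 79.95 and 78.1 CPM against 77.1, 65.7 and 75.7. One library, ADP-CM replicate 2, moved its value, since the log2 fold change of -0.14 became -0.07 without that library, with an adjusted p of 0.153 in edgeR's test. NDUFB2 (chromosome 7, 140390577 to 140422590) was at 74.8, 71.9 and 74.7 CPM against 68.99, 69.0 and 65.2. In the annotation 35.1% of its exonic bases lie opposite other genes. NDUFB5 (chromosome 3, 179322478 to 179345435) was at 90.6, 92.98 and 91.6 CPM against 85.7, 85.2 and 82.9. None of these 4 genes overlapped between the groups, and none was called by DESeq2. Only 1 gene of complex I was called without control replicate 1, 2 without ADP-CM replicate 1 and 3 without control replicate 3. In the same order these fits called 21.6%, 20.7% and 20.8% of all tested genes, where the full fit called 26.5%.
NDUFA4, named for complex I but now counted as a subunit of complex IV, was at 69.1 ± 3.42 and 70.8 ± 1.27 CPM and did not pass the test. NDUFC2 was at 13.5 ± 0.751 and 13.6 ± 0.478 CPM and shares 18.6% of its exonic bases with the readthrough locus NDUFC2-KCTD14, which had 0 reads in all libraries.

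Complex II, succinate dehydrogenase, is also an enzyme of the citric acid cycle. SDHB (chromosome 1, 17345159 to 17380527), its iron-sulfur subunit, was at 192.0, 190.6 and 188.8 CPM in the control libraries against 211.9, 208.3 and 197.5 with ADP-CM. The groups did not overlap, and the log2 fold change was 0.11 (SE 0.027, edgeR adjusted p 0.000644). Without ADP-CM replicate 1 the log2 fold change was 0.09 and the adjusted p 0.0232 in the same edgeR test, so the call of complex II rests on that library.
SDHC, one of the membrane anchors, was at 46.6, 46.2 and 47.9 CPM in the control libraries against 42.5, 43.2 and 42.2 with ADP-CM. These groups did not overlap either, but the log2 fold change of -0.14 had an adjusted p of 0.0158 in edgeR's test and was not called. SDHA, the flavoprotein subunit, had a log2 fold change of 0.03 and SDHD, the other anchor, 0.05, with overlap in both. Of the exonic bases of SDHA, 21.7% are shared with another annotated gene on its strand.

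Complex III, the cytochrome bc1 complex, held the calls with the smallest adjusted p-values of the chain, and they went in opposite directions. UQCRC1 and UQCRC2 code for the core proteins 1 and 2, which pair on the matrix side. UQCRC1 (chromosome 3, 48636435 to 48648409) was at 252.9, 254.3 and 267.6 CPM in the control libraries against 227.1, 219.4 and 240.3 with ADP-CM, a log2 difference of -0.17 (SE 0.027, edgeR adjusted p 2.83e-07). UQCRC2 (chromosome 16, 21964609 to 21994981) was at 254.8, 252.9 and 251.4 CPM in the control libraries against 285.0, 278.2 and 283.1 with ADP-CM, a log2 difference of 0.16 (SE 0.024, edgeR adjusted p 1.75e-07). The 2 genes were thus at nearly the same CPM in control, and the groups were apart for both. Both calls held in all 15 alternatives, DESeq2 included.
The ratio of UQCRC2 to UQCRC1 reads within a library needs no scaling between libraries. It was 1.01, 0.995 and 0.940 in control and 1.26, 1.27 and 1.18 in ADP-CM, or 0.981 ± 0.0361 against 1.23 ± 0.0486. Every ADP-CM library lay above every control library, and a two-sided exact permutation test of the log ratio gave p = 0.1, the smallest that 3 against 3 libraries allow. This pair was chosen after its values were seen. Every ADP-CM library was above every control library for UQCRC2 and below for UQCRC1. The outcome of the ratio test was thus fixed, and it adds no support to either call.
UQCR11 (chromosome 19, 1597168 to 1605472), the smallest subunit, was at 94.9, 88.7 and 92.3 CPM in the control libraries against 102.1, 102.1 and 102.9 with ADP-CM. With a log2 fold change of 0.16 it held in all 15 alternatives, and 11% of its exonic bases are shared with another annotated gene on its strand. UQCRH (chromosome 1, 46769370 to 46782448), the hinge protein that sits by cytochrome c1, was at 110.0, 104.1 and 108.2 CPM against 117.7, 119.4 and 114.4, a log2 fold change of 0.13 that was not called by DESeq2, without control replicate 2 or without ADP-CM replicate 1. The other subunits did not pass the test. CYC1, cytochrome c1 itself, had a log2 fold change of -0.002, and UQCRFS1, the Rieske iron-sulfur protein, one of 0.03.

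UQCRHL, ATP5EP2 and NDUFC2 were singled out after their values were seen. The count of UQCRH is uncertain, because UQCRHL is a near copy. In the annotation UQCRH has 4 exons and UQCRHL 1. UQCRHL was nevertheless counted higher, at 175.9 ± 2.33 CPM in control against 185.8 ± 3.67 with ADP-CM, a log2 difference of 0.08 (edgeR adjusted p 0.0169). The ratio of UQCRHL to UQCRH was 1.64 ± 0.0638 in control against 1.59 ± 0.0234 with ADP-CM, with overlap between the groups. For both genes every ADP-CM library lay above every control library.
ATP5E, the epsilon subunit of the ATP synthase, showed the same in a stronger form. It has 3 exons and was counted at 3.58 ± 0.633 CPM in control, while the 1-exon pseudogene ATP5EP2 was counted at 96.7 ± 2.41 CPM. The level of ATP5E itself can therefore not be read from its row. ATP5EP2 had a log2 fold change of -0.005 and ATP5E one of 0.31 with a standard error of 0.16, and neither passed the test. ATP5L2, a 1-exon copy of ATP5L, had 1 to 9 reads in a library and was not tested.

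Complex IV, cytochrome c oxidase, takes its nuclear subunits partly from genes that exist as tissue isoforms. COX4I2, COX7A1 and COX7B2 had 0 reads in all 6 libraries, and a count of 0 allows up to 3 reads, or 0.163 to 0.185 CPM in a library, by counting error alone. COX6A2 had 1 read in 1 library, and COX8C and COX6B2 had at most 2 in a library. The partner genes were all expressed, with COX4I1 at 324.0 ± 1.49 CPM in control against 321.5 ± 1.89 with ADP-CM. The isoforms known from heart and skeletal muscle (COX6A2, COX7A1), from lung (COX4I2) and from testis (COX6B2, COX7B2, COX8C) thus had at most 2 reads in any library of either group. NDUFA4L2, the hypoxia-induced relative of NDUFA4, had 1 read in 1 library of each group. Per kilobase of canonical transcript, COX4I1 (424.6 CPM per kb in control) was above COX8A (388.1) and COX6B1 (361.5), and COX7A2L (47.3) was far below COX7A2 (313.0). The canonical transcripts of COX7A2L and COX7A2 have 2282 and 462 nt, so the size of this gap depends on the transcript model. Without division by length they were at 108 and 144.6 CPM in control. COX8A shares 35.4% of its exonic bases with another annotated gene on its strand.
The genes that fell in complex IV were COX5B, COX7A2 and COX6B1. COX7A2 (chromosome 6, 75947391 to 75960039) was at 142.8, 146.6 and 144.4 CPM in the control libraries against 135.6, 130.8 and 133.6 with ADP-CM, apart in all libraries, a log2 difference of -0.12 (SE 0.030, edgeR adjusted p 0.00112). COX6B1 (chromosome 19, 36139225 to 36149684) was at 172.5, 178.3 and 178.5 CPM against 164.7, 162.3 and 168.2, also without overlap, a log2 fold change of -0.10. COX5B (chromosome 2, 98262525 to 98264846) was at 113.7, 125.8 and 121.9 CPM against 115.4, 106.9 and 110.8, and it was the only called gene of the 18 whose groups overlapped. Its adjusted p reached 0.0808 in edgeR's test when single libraries were left out. No gene of complex IV was called lower without control replicate 2, and 1 without control replicate 3 or ADP-CM replicate 2. In the same order these fits called 20.6%, 20.8% and 23.5% of all tested genes, where the full fit called 26.5%. DESeq2 called only COX7A2.
The 1 rise in this group, COX4NB, belongs to it by name only. COX4NB, now EMC8, is a subunit of the ER membrane protein complex whose gene adjoins COX4I1, and it was at 62.1, 66.2 and 65.4 CPM in the control libraries against 69.0, 73.6 and 69.7 with ADP-CM, a log2 fold change of 0.13 that DESeq2 did not call and that needed ADP-CM replicate 2 and control replicates 1 and 3. Without it complex IV had 0 genes higher. Its neighbour COX4I1 had a log2 fold change of -0.01.

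In complex V no gene of F1, the catalytic head with the central stalk, passed the test. ATP5A1 and ATP5B, the alpha and beta subunits, were at 776.2 ± 24.7 and 782.3 ± 12.7 CPM and at 1415 ± 34.2 and 1440 ± 22.1 CPM in control and ADP-CM, with log2 fold changes of 0.01 and 0.03. Of the 5 genes of F1, 0 were called, with a lowest adjusted p of 0.131 in edgeR's test, at ATP5E. The calls lay among the 10 genes of the membrane part and the peripheral stalk, with 1 higher and 3 lower, a division that was also made after the values were seen. Against 13.5% higher and 13.0% lower of all tested genes, 0 calls among 5 genes cannot set F1 apart.
ATP5H (now ATP5PD; chromosome 17, 73034958 to 73043080), a peripheral stalk subunit, was at 103.7, 106.7 and 105.7 CPM in the control libraries against 96.3, 95.5 and 93.7 with ADP-CM, a log2 difference of -0.15 (SE 0.033, edgeR adjusted p 0.00026). In the annotation 18.97% of its exonic bases lie opposite other genes. ATP5L (now ATP5MG; chromosome 11, 118272061 to 118303993), the g subunit, was at 241.6, 235.3 and 241.2 CPM against 227.3, 220.0 and 223.3, a log2 fold change of -0.10. Neither gene overlapped between the groups.
The c subunit, which forms the rotating ring, is coded by the 3 genes ATP5G1, ATP5G2 and ATP5G3 (now ATP5MC1, ATP5MC2 and ATP5MC3), which are known to give the same mature protein with different targeting sequences. ATP5G2 (chromosome 12, 54026510 to 54071192) was at 104.8, 102.1 and 103.6 CPM in the control libraries against 95.01, 92.7 and 95.3 with ADP-CM, a log2 fold change of -0.13 that held in all 15 alternatives. ATP5G3 (chromosome 2, 176040986 to 176046438) was at 296.1, 294.0 and 302.6 CPM against 319.6, 314.0 and 313.7, a log2 difference of 0.09 (edgeR adjusted p 0.00212). ADP-CM replicate 1 and control replicates 1 and 2 each decided this call, and without any of them complex V had 0 genes higher. ATP5G1 had a log2 fold change of -0.06 and did not pass the test. The ratio of ATP5G3 to ATP5G2, also chosen after its values were seen, within a library was 2.88 ± 0.0479 in control against 3.35 ± 0.05 with ADP-CM, without overlap, and the two-sided exact permutation test again gave its smallest value of 0.1. That outcome too was fixed, because the groups were already apart for both genes, in opposite directions. Per kilobase of canonical transcript the order in control was ATP5G1 (233.4 ± 3.05 CPM per kb), ATP5G2 (163.8 ± 2.13) and ATP5G3 (115.0 ± 1.73), each apart from the next by more than the spread of the libraries. The canonical transcript of ATP5G3 is the longest of the 3, at 2587 nt, so this order depends on the transcript model.

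**Figure D3:**
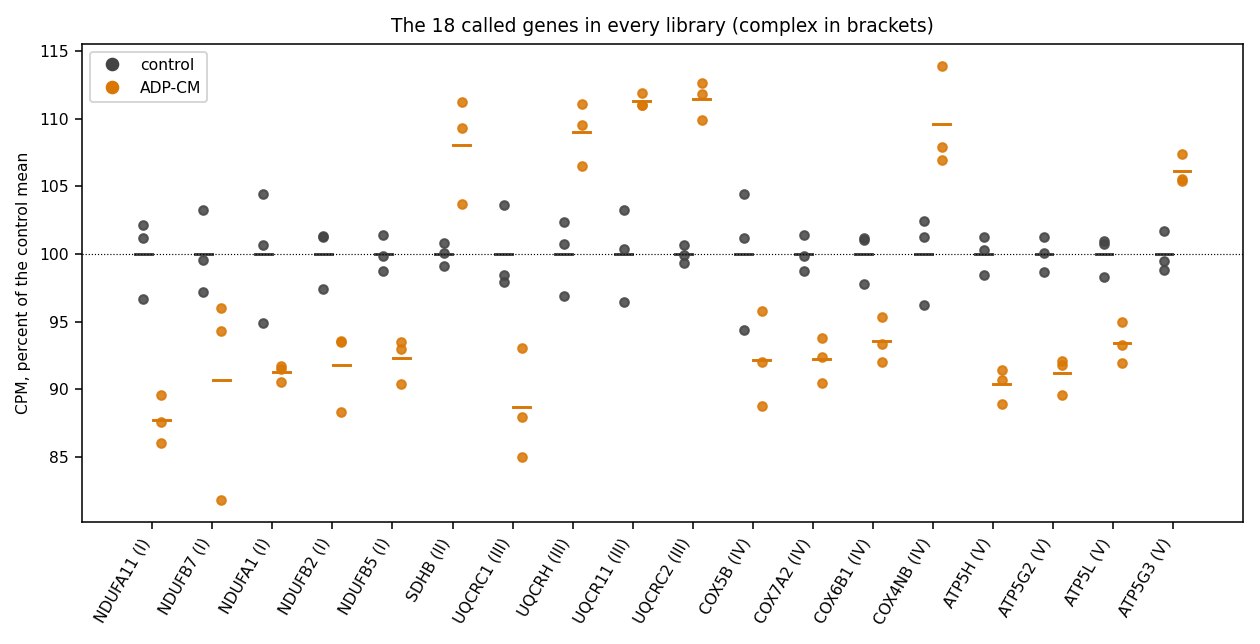
CPM of the 18 called genes in each library as a percentage of the gene's control mean, with control libraries in grey, ADP-CM libraries in orange and short lines at the group means; the y axis does not start at 0. For 17 of the 18 genes the groups are apart, COX5B being the exception, and 1 low ADP-CM library of NDUFB7 stands off from the other two. The genes were called on these same libraries, so the separation is no further support for the calls.

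**Figure D4:**
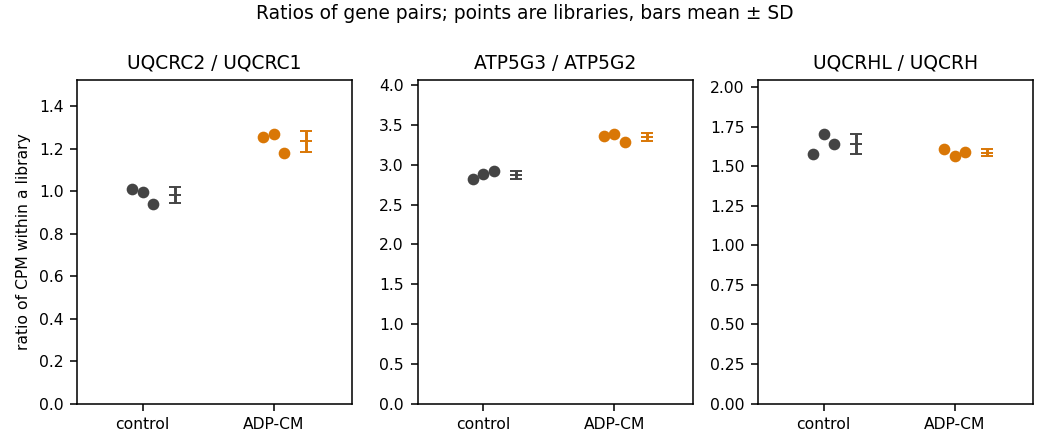
Ratios of CPM within each library for UQCRC2 to UQCRC1, ATP5G3 to ATP5G2 and UQCRHL to UQCRH, with mean ± SD beside the 3 points of each group and axes that start at 0. The first ratio goes from 0.981 to 1.23 and the second from 2.88 to 3.35 without overlap, while the third overlaps between the groups. Separation was fixed for the first and second ratios, whose genes were already apart in opposite directions.

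The genes of the chain are short, and transcript length moved with their direction. The median length of the canonical transcript was 592 nt for the 12 genes that fell, 1606 nt for the 6 that rose and 875.5 nt for the 62 others with a length, against 3361 nt over all tested genes with one. Across the 80 tested genes of the chain with a length, Spearman's rho of length and log2 fold change was 0.36 (Pearson's r 0.30 with log2 length), and across 12055 tested genes it was 0.10 (r 0.07). The points share the same 6 libraries, so these are descriptions. With the smooth trend over GC content, length and level removed from each library, the calls were 7 higher and 12 lower of 80, of which 17 were among the 18, and ATP5L was the call lost (adjusted p 0.0111, edgeR). That fit called 29.7% of all tested genes and 23.75% of the 80. The median of complex I went from -0.05 to -0.03, and 43 of 80 genes were then below 0 where 51 of 81 had been.

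Genes that serve the chain without being part of the symbol rule were read from lists set with earlier results of these data known. NDUFAB1, CYCS (cytochrome c itself), C14orf2, USMG5 and ATPIF1, the inhibitor of the ATP synthase, had 0 calls, with log2 fold changes from -0.02 to 0.07 (1 higher at an unadjusted p under 0.05, 0 called by DESeq2). Of 55 assembly factors, 4 rose and 5 fell, 7.27% and 9.09%, both below the 13.5% and 13.0% of all tested genes, and their median was 0.001 on the log2 scale. The complex III factor C11orf83 (now UQCC3) fell most (26.4 ± 2.09 CPM in control, 20.2 ± 0.665 with ADP-CM, log2 -0.39), and TTC19, another complex III factor, rose by 0.17. ATPAF1, a chaperone of the F1 head, fell with -0.26. In complex IV, HIGD2A, HIGD1A and FAM36A (now COX20) fell with -0.24, -0.17 and -0.24, and SELRC1 (now COA7) and LRPPRC rose with 0.13 and 0.08. C2orf56 (now NDUFAF7), a methyltransferase that acts on complex I, rose with 0.23. Only 2 assembly factors were called higher without control replicate 3 or without ADP-CM replicate 1, and 1 with DESeq2. In the same order 20.8%, 20.7% and 16.9% of all tested genes were called, where the full edgeR fit called 26.5%.
Of 16 genes of the citric acid cycle and pyruvate dehydrogenase, 4 fell (25%) and 1 rose (6.25%), against 13.0% and 13.5% of all tested genes. Among those that fell, OGDH, DLD and FH had log2 fold changes of -0.16, -0.14 and -0.13. SUCLG2 rose with 0.14, at an adjusted p of 0.00997 in edgeR's test, and fell out of the calls without control replicate 2 or 3 or ADP-CM replicate 1 or 2.
Of 18 genes of mitochondrial biogenesis and mitochondrial DNA expression, 5 rose (27.8%, against 13.5% of all tested genes) and 0 fell (against 13.0%, with 1 lower at an unadjusted p under 0.05 and 0 lower with DESeq2). C10orf2 (now TWNK), the helicase of mitochondrial DNA, went from 70.3 ± 2.66 to 82.6 ± 2.51 CPM, and PPRC1, a coactivator of the PGC-1 family, from 178.0 ± 2.12 to 198.2 ± 4.72 CPM, with log2 fold changes of 0.23 and 0.15. PPARGC1B, POLRMT and POLG2 had 0.24, 0.23 and 0.31. Among the 13 that did not pass the test, PPARGC1A, NRF1, GABPA, TFAM and ESRRA had log2 fold changes between -0.03 and 0.07. The largest changes among the 13 were those of GABPB2 (-0.16), GABPB1 (-0.13), TFB1M (0.13) and TFB2M (0.13). GABPB1 (edgeR adjusted p 0.0115) was the gene lower at an unadjusted p under 0.05, and TFB2M had an edgeR adjusted p of 0.0286. Groups overlapped for GABPB2 but not for GABPB1, TFB1M and TFB2M. No gene of these lists passed a 1.5-fold change.

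Other gene families of similar size can be set beside the chain in the same fit, where 13.5% of all tested genes rose and 13.0% fell. The 75 tested mitochondrial ribosomal protein genes had 4 higher (5.33%), 6 lower (8%) and a median log2 fold change of -0.01, of the same sign as the chain's -0.02. The 81 tested cytosolic ribosomal protein genes had 55 higher (67.9%), 1 lower (1.24%) and a median of 0.12. These counts are descriptions, and the difference from the respiratory chain was not tested.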

How the data were processed

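RNA of 6 RL95-2 samples, 3 control and 3 ADP-CM, was sequenced from stranded poly(A) libraries as 50 nt single reads. The authors aligned reads to hg19 with TopHat2 and counted them on RefSeq genes with HTSeq, and the deposited values are raw counts per gene for each library. Program versions and the strand setting are not given in the sources used here. HTSeq leaves out reads without a unique alignment (20.5% to 20.8% of all reads), which undercounts genes with near copies. Lines that name no gene, 10.2% to 11.57% of reads on no gene and 0.709% to 0.721% ambiguous reads among them, stayed out of library sizes and tests.

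In R 4.3.3, edgeR 4.0.16 tested all 12663 genes kept by filterByExpr (TMM, quasi-likelihood test, Benjamini-Hochberg over all of them, threshold 0.01), and the rows of the chain were read from that table. The study's limit on the fold change, 1.5, was counted separately. CPM are TMM-normalized, computed here. The common biological coefficient of variation was 1.67%. No replicates of a group agreed within sampling noise. Alternatives were DESeq2 1.42.0, other scalings, filters and limits, offsets for GC content and length (mgcv), the replicate number as a block and each library left out. The members and lists were chosen with earlier results of these data known. Genes were named by a fixed rule: the up to 4 largest called changes of each complex, SDHA to SDHD, UQCRFS1, CYC1, ATP5A1, ATP5B, the isoform families, up to 3 called genes of each list, and genes that close a count or were not tested. Others were chosen after their values were seen. Reads carry no molecular identifiers, so limits cover counting error only. On simulated counts edgeR recovered 35 of 50 genes changed by 0.25 on the log2 scale, with 1 false call among 12599 genes. That was the smallest change simulated. The called genes of the chain changed by 0.19 (NDUFA11) or less in either direction, so recovery at their size was not measured. All 91 genes were placed with GENCODE release 44 (GRCh37), and 90 have a length. Promoters came from RefSeq on GRCh38.p14, a build other than that of the counts, and were used for sequence only. Values of some single genes are not reported here.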

Additional observations from a re-analysis of the deposited data

Results flagged for a closer look

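Reads that lay on no gene entered no comparison. Their share ranged from 10.2% to 10.31% with control medium and from 11.51% to 11.57% with ADP-CM, where the mean of 11.55% was above every control library. What these reads came from was not analysed here.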

How the results depend on the processing

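Of 21 genes with alternatives (the 18 called genes and the rest of complex II), 9 kept their direction and side of the threshold in all 15. Of the called genes these were only NDUFA11, UQCRC1, UQCRC2, UQCR11, ATP5G2 and ATP5H. The rest were SDHA, SDHC and SDHD, which stayed uncalled. Every other called gene lost its call in at least 1 alternative, and no called gene turned direction. DESeq2 called 6 genes lower where edgeR called 12, with 1 in complex I, 0 higher and 1 lower in complex IV, and 1 assembly factor and 0 citric acid cycle genes higher. With a fold change over 1.5 every count became 0. At an adjusted p of 0.05 edgeR called 36.7% of all tested genes and 30.9% of the members. Complex I then had 10 lower, complex II 1 lower, the cycle genes 4 higher and the biogenesis genes 1 lower. Without name-only matches complex IV had 0 higher, and with upper quartile scaling 0 cycle genes were higher. With the GC and length trend removed complex V had 2 higher, the cycle genes 4 higher and the biogenesis genes 1 lower, the same with the replicate block added. Without and with the block, these fits called 29.7% and 30.3% of all tested genes, and 23.75% and 26.25% of the members.

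The replicate numbers do not pair the samples by the labels, and same-numbered libraries correlated at 0.07, 0.01 and 0.10 in their deviations. Each control library was best with its own number, but ADP-CM replicate 2 was better with control replicate 1 (0.03). Over the members alone, ADP-CM replicate 1 was better with control replicate 3 (0.23) than with control replicate 1 (0.17). The replicate block moved the members' calls from 18 to 20, with 2 higher cycle genes and 1 lower biogenesis gene. The share of all tested genes that were called went from 26.5% to 27.7% with it.

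Leaving out each library in turn gave 3 to 7 members higher and 8 to 12 lower, and a median log2 fold change of -0.03 to -0.01. The share called was 20.6% to 25.1% of all tested genes, where the full fit called 26.5%. Among the members it was 13.6% to 23.5%, against 22.2% in the full fit. The counts ran, for complex I, from 1 to 5 lower, for complex II from 0 to 1 higher, for complex III from 2 to 4 higher, for complex IV from 0 to 1 higher and 0 to 3 lower, and for complex V from 0 to 1 higher. Assembly factors ran from 2 to 4 higher and 4 to 6 lower, cycle genes from 0 to 2 higher, and the sum of complex III from 1.14% to 2.14% above control. The sums of complexes I, II, IV and V ran from -3.38% to -2.51%, 2.71% to 4.72%, -2.73% to -1.02% and -1.01% to 1.16%. Fewer libraries were tested in these fits. Alternatives for the lists and sums were chosen after seeing the data.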
